A study of Mus musculus with 4 samples.

Results

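Naive-like CD8 T cells were described in the lungs of mice bearing HKP1 tumours after irradiation (4 Gy) or mock treatment (0 Gy). The cells were chosen by measured values: a barcode of a CD45-plus library was a member when it held at least 1 UMI (unique molecular identifier, 1 captured transcript) of Cd3d, Cd3e or Cd3g, of Cd8a or Cd8b1, and of Lef1 or Dapl1, and no UMI of Cd4, Ccl5, Cd79a, Ncr1 or Foxp3. The rule selected 453 of 9608 barcodes at 4 Gy and 226 of 5415 barcodes at 0 Gy, 679 of 15023 in all. Both groups were female C57BL/6 mice, 8 weeks old when 150000 HKP1 cells, a mouse lung adenocarcinoma line, were injected into the tail vein. The 4 Gy group was irradiated on 3 consecutive days, from day 10 to day 12 after the injection, and the 0 Gy group was the mock-treated control that carried the same tumours. The lungs of 4 mice in each treatment were harvested between 24 and 48 h after irradiation ended. Live cells were sorted by CD45, and 3′ ends of their transcripts were sequenced on the 10x Genomics platform. There was 1 CD45-plus library per group, barcodes carry no mouse of origin, and no tumour-free lung is among the groups, so no test of a difference between the treatments was possible and none is given.

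CD8 T cells recognise peptides on MHC class I through the T cell receptor, with the CD8 alpha and beta chains as coreceptor. Before they meet antigen they are quiescent: the transcription factors LEF1 and TCF7 hold the naive programme, interleukin 7 receptor signals and BCL2 keep the cells alive, and CCR7 guides them to lymph nodes. Resting lymphocytes are among the cells most sensitive to ionising radiation, which acts through DNA breaks, ATM and p53. In the lung, naive T cells are found largely in blood vessels, and the stains that the labels name were CD45 and DAPI, so cells of vessels and of tissue cannot be told apart.

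The label was checked against genes that the rule did not use. Il7r, the interleukin 7 receptor, had 802 CPM at 4 Gy and 747 CPM at 0 Gy, where CPM scales a gene's UMIs, summed over the members, to a total of 1000000 UMIs. Tcf7 had 418 and 381 CPM and Klf2, a transcription factor of quiescence and of exit from lymphoid organs, 1191 and 1117 CPM, in the same order. Cd44, a marker of antigen experience, was detected in 5.74% of members at 4 Gy and in 7.52% at 0 Gy. Genes of killing differed in level: Gzmb, a granzyme, had 1.57 CPM at 4 Gy and 0.876 CPM at 0 Gy, and Klrg1, a receptor of effector cells, had no UMI in either library, while Prf1, perforin, had 35.1 and 26.3 CPM, with a UMI in 59 of 453 members at 4 Gy and 29 of 226 at 0 Gy. Nkg7, a granule protein of cytotoxic lymphocytes, was at 419.5 CPM at 4 Gy and 380.4 CPM at 0 Gy, and after thinning to 1000 UMIs it was expected in 32.9% and 30.6% of members, against 1.53% and 1.01% of B cells (Cd79a detected, no Cd3 gene), which should lack it. These genes do not by themselves set naive cells apart from memory cells. Barcodes that failed the rule by Ccl5 alone, with at least 5 UMIs of it, still had Il7r at 592.8 CPM at 4 Gy and 494.7 CPM at 0 Gy. Their Tcf7 was at 336.8 and 294.9 CPM. Leaving out Ccl5 may itself lower effector genes, which was not tested. Ly6c2, which memory-phenotype CD8 T cells carry, was detected in 21.85% of members at 4 Gy and 37.6% at 0 Gy. The name naive-like CD8 T cells is kept as the label of the rule.

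Of the rule's own genes, which are given as a description, Cd8b1 had 925 CPM at 4 Gy and 981 CPM at 0 Gy and Cd8a 374 and 359 CPM. Lef1 had 471 CPM at 4 Gy and 451 CPM at 0 Gy. Dapl1, whose function in T cells is little known, had 404 CPM at 4 Gy and 478 CPM at 0 Gy. In build GRCm38, Cd8b1 and Cd8a lie next to each other on the plus strand of chromosome 6, Cd8b1 at chr6:71322788-71337494 and Cd8a at chr6:71373427-71379173. Lef1 lies at chr3:131110471-131224356 and Dapl1 at chr2:59484653-59505020, both on the plus strand. Counts were per gene, with no exon, intron or UTR resolved.

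Detection of single genes depends on depth, which differed: members had a median of 3623 UMIs and 1456 genes at 4 Gy, and 4656 UMIs and 1659.5 genes at 0 Gy. Both Lef1 and Dapl1 were detected in 198 of 453 members at 4 Gy (43.7%) and in 117 of 226 at 0 Gy (51.8%). Lef1 alone was detected in 42.2% and Dapl1 alone in 14.1% of members at 4 Gy, against 37.2% and 11.1% at 0 Gy. Cd8a and Cd8b1 were both detected in 70.2% of members at 4 Gy and 78.3% at 0 Gy, and Cd8b1 without Cd8a in 26.5% and 19.5%. Both constant regions of the T cell receptor beta chain, Trbc1 and Trbc2, had UMIs in 52.8% of members at 4 Gy and 59.3% at 0 Gy, though a T cell uses 1 of them, and these near-identical genes may share reads. The shares that rest on detection were thus lower at 4 Gy, where the cells were shallower. Once each cell was thinned to 1000 UMIs, Cd8b1 was expected in 61.8% of members at 4 Gy and 63.2% at 0 Gy, against 0.244% and 0.275% of B cells. Medians of 2.21% mitochondrial UMIs at 4 Gy and 2.24% at 0 Gy, and of 15.6% and 15.7% ribosomal protein UMIs, differed little.

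Some members carried transcripts of a second lineage. Against 35 markers of B cells, neutrophils, monocytes and macrophages, 28 of 453 members at 4 Gy (6.18%) and 11 of 226 at 0 Gy (4.87%) had 10 or more UMIs. These mixed barcodes had medians of 10508.5 UMIs at 4 Gy and 12939 at 0 Gy, against 3577 and 4621 in the other members, though a fixed number of UMIs is reached more easily in deep barcodes. They held 16.3% of the members' UMIs at 4 Gy and 13.3% at 0 Gy, but 91.3% and 91.8% of the UMIs of those markers. Since the barcodes were picked by these markers, a high share of marker UMIs follows from the choice, as do the lower marker levels without them. At 4 Gy, 10 were mostly B, 11 mostly monocyte or macrophage and 7 mostly neutrophil in marker UMIs, against 7, 1 and 3 at 0 Gy. Lyz2, the lysozyme of myeloid cells and 1 of the 35 markers, had 1225 CPM over all members at 4 Gy and 904 CPM at 0 Gy. Without the mixed barcodes it had 45.1 and 42.5 CPM. The 14 B cell markers summed to 3478 CPM over all members at 4 Gy and 4560 CPM at 0 Gy, and to 449.9 and 499.3 CPM without mixed barcodes, with Cd79a at 0 by the rule. The 14 monocyte and macrophage markers, Ly6c2 among them although it is not among the 35, summed to 2447 and 1914 CPM, and to 282.0 and 380.0 CPM without them, with Adgre1 at 0, and the 8 neutrophil markers to 628.7 and 798.4 CPM, and to 84.0 and 46.5 CPM. Of the 282.0 and 380.0 CPM, Ly6c2 alone, which CD8 T cells also carry, made up 150.4 CPM at 4 Gy and 263.8 CPM at 0 Gy. Those 2 sums therefore do not show in which library more myeloid RNA remained. The part of what remained in the results was not tested. The limit of 10 UMIs was chosen after seeing the data. Where a value is said to be without mixed barcodes, it comes from the 425 members at 4 Gy and 215 at 0 Gy that remained, with 1595968 and 989463 UMIs.

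**Figure D1:**
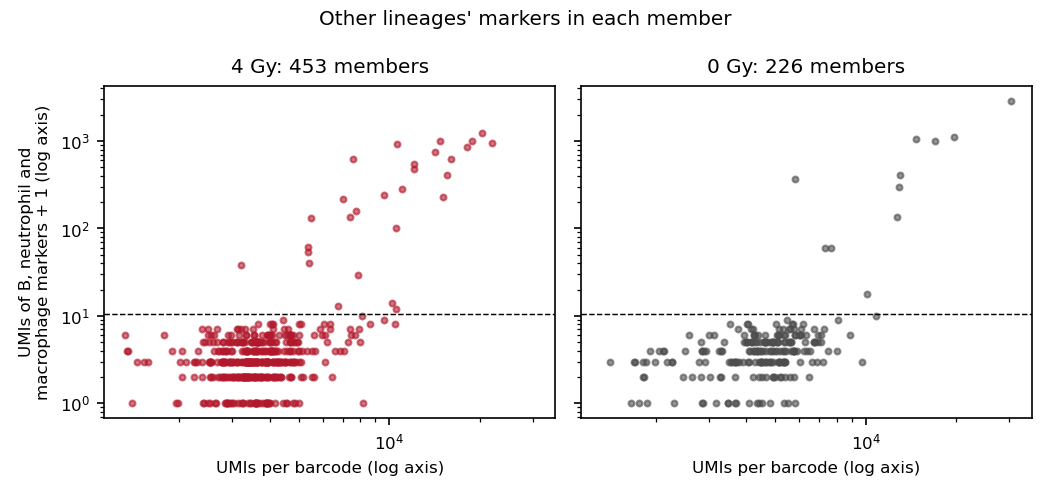
UMIs of the 35 markers of B cells, neutrophils, monocytes and macrophages (plus 1, vertical log axis) against all UMIs of the barcode (horizontal log axis), 1 point per member, in the 4 Gy library on the left and the 0 Gy library on the right. Above the dashed line lie the 28 mixed barcodes at 4 Gy and the 11 at 0 Gy, most of them deeper than the other members.

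Naive-like CD8 T cells took a similar share of the immune cells after both treatments. They were 4.71% of CD45-plus barcodes at 4 Gy (exact binomial 95% interval 4.30 to 5.16%) and 4.17% at 0 Gy (3.66 to 4.74%). The ratio of the shares was 1.13, with an exact interval of 0.961 to 1.33 that holds 1. All intervals here cover counting error between these libraries alone, not the spread between mice. Of the barcodes with a Cd3 gene they were 14.6% at 4 Gy and 14.1% at 0 Gy, a ratio of 1.04 [0.882 to 1.22]. CD8 T cells with Ccl5, defined as CD8 barcodes with that chemokine of effector and memory cells detected, were 4.67% at 4 Gy and 4.21% at 0 Gy, a ratio of 1.11 [0.944 to 1.31]. Naive-like CD4 T cells, chosen by the same rule with Cd4 in place of the CD8 genes, were 2.34% at 4 Gy and 1.90% at 0 Gy, a ratio of 1.23 [0.971 to 1.57]. B cells were 36.1% at 4 Gy and 43.2% at 0 Gy, with a ratio of 0.836 [0.793 to 0.881], and shares of 1 library add up to a fixed whole. In the CD45-minus libraries the rule found 0 of 4313 barcodes at 4 Gy and 2 of 5979 at 0 Gy.

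**Figure D2:**
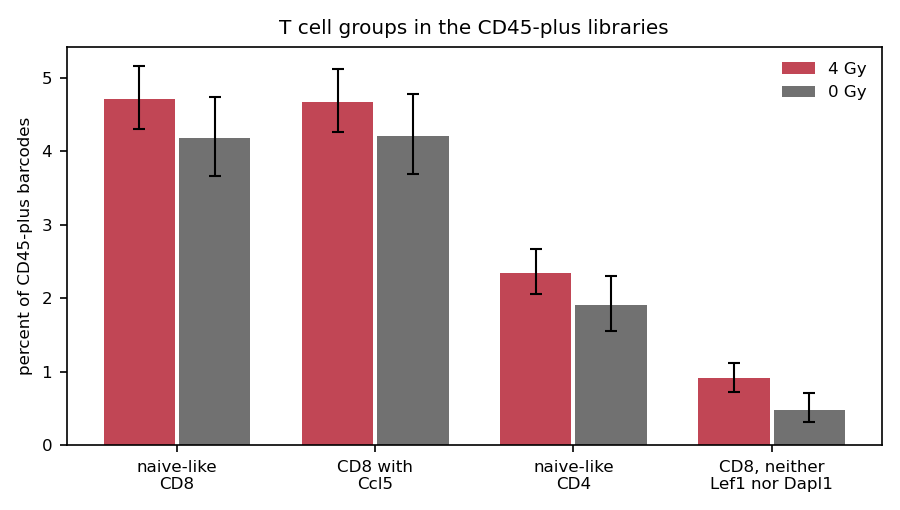
Share of CD45-plus barcodes (percent) in each of 4 groups of T cells, with the 4 Gy library as the left and the 0 Gy library as the right bar of each pair and exact binomial 95% intervals as error bars. Naive-like CD8 T cells were 4.71% at 4 Gy and 4.17% at 0 Gy, with intervals that overlap, while those of CD8 T cells with neither Lef1 nor Dapl1 do not. That last group rests on genes not being detected, and its barcodes were shallower at 4 Gy (median 3150 UMIs) than at 0 Gy (3461.5). The part of depth in its shares was not tested.

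The edge of the rule was looked at on both sides. Just inside it were members with a single UMI of Lef1 and Dapl1 together, 86 at 4 Gy and 34 at 0 Gy, with Ccr7 at 392.8 and 297.5 CPM and Nkg7 at 442.8 and 310.4 CPM. Just outside were barcodes that met the rule but had neither gene, 87 (0.906%) at 4 Gy and 26 (0.480%) at 0 Gy. These had Ccr7 at 241.3 CPM at 4 Gy and 255.5 CPM at 0 Gy, Nkg7 at 557.9 and 638.8 CPM and Cxcr3, a chemokine receptor of activated T cells, at 43.88 and 85.17 CPM, and they were shallower, with medians of 3150 and 3461.5 UMIs. Barcodes that failed by 1 UMI of Ccl5 alone numbered 62 at 4 Gy and 26 at 0 Gy, with Ccr7 at 338.4 and 238.6 CPM. A further 78 barcodes at 4 Gy and 36 at 0 Gy failed through Cd79a alone, and their Igkc, an immunoglobulin light chain, was at 4206 and 4729 CPM, against 58.2 and 71.0 CPM in members.

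The members were set against naive-like CD4 T cells and CD8 T cells with Ccl5, as a description and without mixed barcodes in any of the groups. Over naive-like CD4 T cells, 67 genes were higher and 108 lower, by 1.5-fold or more in both libraries, among genes with 100 UMIs or more. Higher were Ccr9, the receptor for the gut and thymus chemokine CCL25, at 95.2 CPM at 4 Gy and 81.9 CPM at 0 Gy, against 5.77 and 0 CPM in CD4 cells, and Itgae, the integrin chain CD103, at 55.8 and 44.5 CPM against 1.44 and 2.68 CPM. Nkg7 was at 466.2 CPM at 4 Gy and 409.3 CPM at 0 Gy in the members, against 39.0 and 48.2 CPM in CD4 cells, and the NK receptor chain gene Klrd1 at 229.9 and 248.6 CPM against 30.3 and 21.4 CPM. These last genes belong to the cytotoxic lineage, and the naive-like CD8 cells carried them while Gzmb stayed near 0. Lower were S100a6 (42.0 and 13.1 CPM, against 231.0 and 310.9 CPM in CD4 cells) and S100a4 (7.52 and 13.1 CPM, against 90.9 and 158.1 CPM), calcium-binding proteins of activated and memory cells. Gata3, a factor of the CD4 lineage, was at 68.3 CPM at 4 Gy and 60.6 CPM at 0 Gy, against 154.5 and 201.0 CPM in CD4 cells.

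Over CD8 T cells with Ccl5, 90 genes were higher in the members and 377 lower, by the same size in both libraries. Igfbp4, a binding protein for insulin-like growth factors, was at 315.8 CPM at 4 Gy and 243.6 CPM at 0 Gy, against 78.8 and 38.2 CPM in the cells with Ccl5. Ccr9 was at 95.2 CPM at 4 Gy and 81.9 CPM at 0 Gy, against 16 and 4.66 CPM, and Ccr7 at 381.0 and 306.2 CPM, against 147.0 and 125.7 CPM. Both are homing receptors. The uncharacterised gene 1700062C10Rik stood out from both other groups, with 46.4 CPM at 4 Gy and 46.5 CPM at 0 Gy in members, 0 CPM at both doses in CD4 cells and 3.56 and 1.86 CPM in CD8 cells with Ccl5. Effector genes ran the other way: Ccl4, an inflammatory chemokine, was at 18.8 CPM at 4 Gy and 1.01 CPM at 0 Gy in members, against 485 and 1120 CPM in CD8 cells with Ccl5, and Gzmb at 1.88 and 1.01 CPM, against 85.9 and 67.0 CPM.

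**Figure D3:**
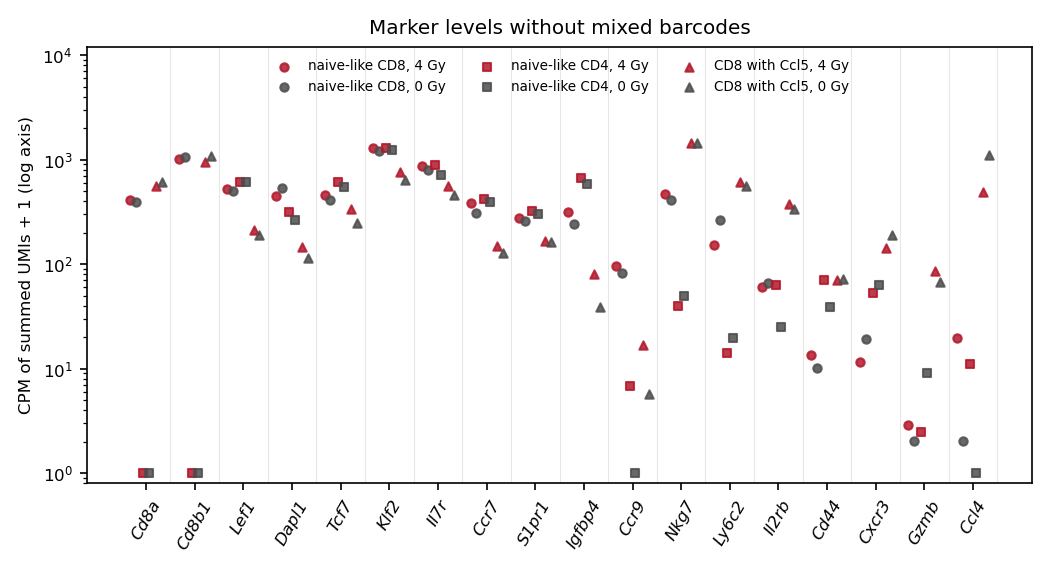
Level of 18 genes (CPM of summed UMIs plus 1, log axis) in naive-like CD8 T cells (circles), naive-like CD4 T cells (squares) and CD8 T cells with Ccl5 (triangles) without mixed barcodes, in the 4 Gy library (red, left of each pair) and the 0 Gy library (grey). Naive-like CD8 T cells lie with CD4 cells for Ccr7 and Il7r, above both other groups for Ccr9, and far below the cells with Ccl5 for Gzmb and Ccl4, whichever the dose.

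Between treatments, most genes of naive-like CD8 T cells differed by less than 1.5-fold. Genes with at least 30 UMIs over the members of both libraries were compared by their CPM, with 5 CPM added to each, and called higher or lower at 1.5-fold, a size and not a test. Of 7911 such genes, 592 (7.48%) were higher and 187 (2.36%) lower at 4 Gy, and the median log2 ratio of 4 Gy over 0 Gy was 0.07. With median-of-ratios scaling instead of CPM the counts were 472 higher and 257 lower. Without mixed barcodes, 525 of 7070 genes (7.43%) were higher and 189 (2.67%) lower, with a median of 0.06, and 360 higher and 117 lower genes were called both ways. The interval of the ratio of CPM left out 1 for 350 of the 525 and 130 of the 189. In the lists below, these shares of all genes are the background against which counts are to be read. Unless all members are named, the values of single genes in the T cell groups are without mixed barcodes. Those of B cells are from all B cell barcodes, since mixed barcodes were not left out there. Ratios are of CPM at 4 Gy over 0 Gy, and brackets hold the exact 95% interval.

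In the list of alpha-beta T cell receptor, CD3 and CD8 chains, none of the 4 measured genes outside the rule, Trac, Trbc1, Trbc2 and Cd247, was called in either direction, with a median log2 ratio of -0.13 over all members and -0.09 without mixed barcodes. Trac, the constant region of the alpha chain, had 380.3 CPM at 4 Gy, against 422 CPM at 0 Gy, a ratio of 0.9 [0.793 to 1.02], and Trbc2 1102 CPM at 4 Gy, against 1193 CPM at 0 Gy, 0.924 [0.858 to 0.995]. Among 37 genes of receptor-proximal signalling and adaptors, 1 of 37 was higher over all members and 2 without mixed barcodes, and none was lower, near the background of 7.43%, with medians of 0.03 and 0.06. Plcg1, a phospholipase below the receptor, was among the 2 and had 60.8 CPM at 4 Gy, against 37.4 CPM at 0 Gy, a ratio of 1.62 [1.10 to 2.44]. Lck, the kinase that the CD8 coreceptor carries, had 436 CPM at 4 Gy, against 477 CPM at 0 Gy, 0.913 [0.811 to 1.03].

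No gene of the naive and quiescence programme differed by 1.5-fold. None of its 29 measured genes was called, with or without mixed barcodes, and 22 of 29 had a ratio above 1, with a median log2 ratio of 0.10 over all members and 0.13 without mixed barcodes, against 0.07 and 0.06 for all genes. Ccr7 had 381 CPM at 4 Gy, against 306 CPM at 0 Gy, a ratio of 1.24 [1.08 to 1.43]. It guides cells into lymph nodes. Foxo1, the transcription factor that drives Il7r and Klf2, had 102 CPM at 4 Gy, against 71.8 CPM at 0 Gy, 1.42 [1.06 to 1.90]. Tcf7 had 462 CPM at 4 Gy, against 411 CPM at 0 Gy, 1.12 [0.995 to 1.27], and Il7r 872 CPM at 4 Gy, against 787 CPM at 0 Gy, 1.11 [1.01 to 1.21]. Btg1, an antiproliferative gene of resting lymphocytes, lay below 1, with 1075 CPM at 4 Gy, against 1192 CPM at 0 Gy, 0.902 [0.837 to 0.972]. In CD8 T cells with Ccl5 the same list had a median of 0.26 with 4 of 29 genes higher, among them Igfbp4, with a ratio of 2.06 [1.45 to 3.01], against 1.30 [1.11 to 1.52] in the members, where the levels were 316 CPM at 4 Gy, against 244 CPM at 0 Gy. The difference between these cell groups was not tested.

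Of the transcription factors of the CD8 lineage, Runx1 and Id2 were higher among 20 measured over all members, and Runx1 was higher and Myb lower among 19 without mixed barcodes. For all genes, 7.48% were higher and 2.36% lower over all members, and 7.43% and 2.67% without mixed barcodes. The few calls in the lists of this paragraph are near that background. Runx1, which with Runx3 represses Cd4, had 47.6 CPM at 4 Gy, against 29.3 CPM at 0 Gy, a ratio of 1.62 [1.05 to 2.59]. Myb, a progenitor factor, had 10 CPM at 4 Gy, against 26.3 CPM at 0 Gy, 0.382 [0.191 to 0.739], from 16 and 26 UMIs. Bcl11b, which maintains T cell identity, was not called, with 308 CPM at 4 Gy, against 234 CPM at 0 Gy, 1.32 [1.13 to 1.55], and Ets1 had 662 CPM at 4 Gy, against 585 CPM at 0 Gy, 1.13 [1.02 to 1.25]. Of homing and adhesion genes, Cxcr4, the receptor for CXCL12, was higher with 60.1 CPM at 4 Gy, against 33.4 CPM at 0 Gy, 1.8 [1.20 to 2.77], 1 of 21 measured. A single cell held 17 of its 96 UMIs at 4 Gy, and without that cell its level was 49.6 CPM. Over all members Cxcr4 was higher and Cxcr3 lower, Cxcr3 with 25 UMIs at 4 Gy and 28 at 0 Gy. Of 28 measured cytokine receptor and signalling genes, Jak3 and Stat5b were higher, and Tgfbr1, a receptor for transforming growth factor beta, was lower, while over all members it was Jak3 alone of 29. Stat5b, which carries interleukin 7 and interleukin 2 signals, had 57.6 CPM at 4 Gy, against 36.4 CPM at 0 Gy, 1.58 [1.07 to 2.40], and Tgfbr1 15 CPM at 4 Gy, against 27.3 CPM at 0 Gy, 0.551 [0.304 to 0.992].

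Bcl2, the survival protein that interleukin 7 maintains in naive T cells, was not called but had a narrow interval above 1. It had 1247 UMIs and 654 CPM over all members at 4 Gy, against 537 UMIs and 471 CPM at 0 Gy, a ratio of 1.39 [1.25 to 1.54]. Without mixed barcodes it had 729 CPM at 4 Gy, against 505 CPM at 0 Gy, a ratio of 1.44 [1.30 to 1.61], just short of 1.5. It was expected in 44.2% of cells at 4 Gy and 34.6% at 0 Gy after thinning, and seen in 76.0% and 68.8% before it. The gene lies at chr1:106538178-106714274 on the minus strand. Its ratio was 1.30 [1.08 to 1.57] in naive-like CD4 T cells, 1.19 [1.08 to 1.32] in CD8 T cells with Ccl5 and 1.21 [1.13 to 1.28] in B cells, above 1 in all of them. The ratio in the members over that in CD8 cells with Ccl5 was 1.21 [1.05 to 1.40]. Of the 16 measured genes of the BCL2 family and apoptosis, none was higher and Bak1, a pore-forming killer protein, was lower with 13.8 CPM at 4 Gy, against 26.3 CPM at 0 Gy, 0.525 [0.283 to 0.963]. For all genes without mixed barcodes, 7.43% were higher and 2.67% lower. Mcl1, the other main survival gene, had 243 CPM at 4 Gy, against 212 CPM at 0 Gy, 1.15 [0.966 to 1.36], and Bbc3, the p53-induced killer gene PUMA, 38.2 CPM at 4 Gy, against 26.3 CPM at 0 Gy, 1.46 [0.905 to 2.40].

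Some targets of p53 were called. Of all genes, 7.48% were higher and 2.36% lower over all members, and 7.43% and 2.67% without mixed barcodes. Over all members, Cdkn1a and Fas were higher and none was lower among 21 measured targets, with a median log2 ratio of 0.18. Without mixed barcodes, Fas and Rps27l were higher and Xpc lower among 18, with a median of 0.04, below the 0.06 of all genes. Cdkn1a, the cyclin-dependent kinase inhibitor p21 (chr17:29090976-29100727, plus strand), had 64.5 CPM over all members at 4 Gy and 23.7 CPM at 0 Gy. However, 76.4% of its UMIs at 4 Gy and all of them at 0 Gy lay in mixed barcodes. Outside these, 6 of 425 cells had it at 4 Gy, with 23 of the 29 UMIs in 1 cell, against 0 of 215 cells at 0 Gy, where a floor of 3 counts allows a share of up to 1.40% of cells with a UMI, which is no limit on cells that express the gene. Without that 1 cell, 6 UMIs were left at 4 Gy. At 29 UMIs it also fell just under the minimum for a measured gene. Its ratio was 3.23 [0.392 to 149] in naive-like CD4 T cells and 4.14 [0.936 to 37.8] in CD8 T cells with Ccl5. In B cells, where mixed barcodes were not left out, it was 2.43 [2.13 to 2.78]. Fas, the death receptor, had 34.5 CPM at 4 Gy, against 17.2 CPM at 0 Gy, a ratio of 2.01 [1.15 to 3.69], with UMIs in 48 cells at 4 Gy and 17 at 0 Gy, against ratios of 0.754 [0.370 to 1.57] in CD4 cells and 0.913 [0.520 to 1.63] in CD8 cells with Ccl5. Rps27l had 79.0 CPM at 4 Gy, against 50.5 CPM at 0 Gy, 1.56 [1.12 to 2.21]. Bax, a pore-forming killer protein, had 109.7 CPM at 4 Gy, against 95 CPM at 0 Gy, 1.15 [0.893 to 1.5], Ccng1 33.2 CPM at 4 Gy, against 32.3 CPM at 0 Gy, 1.03 [0.650 to 1.65], and Mdm2, which degrades p53, 30.1 CPM at 4 Gy, against 32.3 CPM at 0 Gy, 0.930 [0.582 to 1.5].

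Of DNA damage and repair genes, 4 of 21 were higher and none lower without mixed barcodes, with a median of 0.06, and 5 of 23 were higher over all members, with a median of 0.16. The shares of all genes that were higher were 7.43% and 7.48%. Mre11a, part of the complex that senses double-strand breaks, had 31 UMIs at 4 Gy and 6 at 0 Gy, 19.4 CPM at 4 Gy, against 6.06 CPM at 0 Gy, a ratio of 3.20 [1.32 to 9.39]. Rnf168, a ubiquitin ligase at breaks, had 22.6 CPM at 4 Gy, against 9.10 CPM at 0 Gy, 2.48 [1.17 to 5.85], and Prkdc, the kinase of end joining, 19.4 CPM at 4 Gy, against 9.10 CPM at 0 Gy, 2.13 [0.992 to 5.10]. Rpa1, which coats single-stranded DNA, had 48.2 CPM at 4 Gy, against 28.3 CPM at 0 Gy, 1.71 [1.09 to 2.73]. These are low levels with wide intervals, that of Prkdc reaching 1. Trp53 itself had 136 CPM at 4 Gy, against 144 CPM at 0 Gy, 0.947 [0.763 to 1.18], and Atm 38.2 CPM at 4 Gy, against 25.3 CPM at 0 Gy, 1.51 [0.936 to 2.52].

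**Figure D4:**
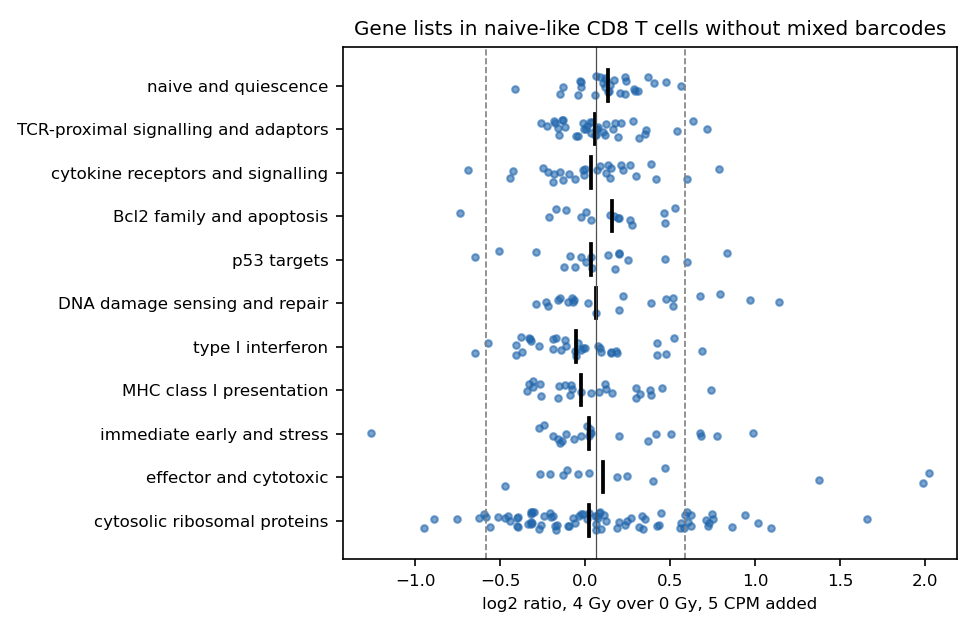
Log2 ratio of CPM at 4 Gy over 0 Gy (5 CPM added) of each measured gene of 11 lists in naive-like CD8 T cells without mixed barcodes, 1 point per gene, with a thick black bar at the median of the list. Dashed lines mark 1.5-fold and the thin line the median of all genes at 0.06. Medians lie close to that line, from -0.06 for type I interferon genes to 0.16 for the BCL2 family.

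Interferon-stimulated genes were called in both directions. The shares of all genes were 7.48% higher and 2.36% lower over all members, and 7.43% and 2.67% without mixed barcodes. Of 39 measured genes of the type I interferon list, Ifitm3 was higher and Oasl2, Ifih1 and Ifit3 were lower over all members, with a median log2 ratio of -0.13. Without mixed barcodes, Ifit2 was higher and Ifit3 lower among 34, with a median of -0.06. Ifitm3, which myeloid cells also express, had 255 CPM at 4 Gy and 159 CPM at 0 Gy over all members but 9.40 and 8.09 CPM without mixed barcodes. Ifit3 had 18.2 CPM at 4 Gy, against 31.3 CPM at 0 Gy, a ratio of 0.580 [0.337 to 0.995]. Ifi27l2a, which was not called, had 279 CPM at 4 Gy, against 417 CPM at 0 Gy, 0.668 [0.583 to 0.766], and its ratio was 0.748 [0.648 to 0.865] in CD4 cells, 0.640 [0.573 to 0.716] in CD8 cells with Ccl5 and 0.663 [0.639 to 0.688] in B cells. Samhd1, a nucleotide hydrolase, lay above 1 with 297 CPM at 4 Gy, against 220.3 CPM at 0 Gy, 1.35 [1.15 to 1.59].

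Of 25 genes of MHC class I presentation, 1 was higher and none lower, with a median of -0.11 over all members and -0.03 without mixed barcodes. That gene was Nlrc5, the transactivator of MHC class I, with 70.8 CPM at 4 Gy, against 40.4 CPM at 0 Gy, a ratio of 1.75 [1.21 to 2.58]. Of genes that it is known to activate, Tap1, a peptide transporter chain, had 129 CPM at 4 Gy, against 118 CPM at 0 Gy, 1.09 [0.866 to 1.38]. H2-K1 had 2310 CPM at 4 Gy, against 2437 CPM at 0 Gy, 0.948 [0.9 to 0.998], H2-D1 1575 CPM at 4 Gy, against 1712 CPM at 0 Gy, 0.920 [0.864 to 0.979], and B2m 1331 CPM at 4 Gy, against 1414 CPM at 0 Gy, 0.941 [0.879 to 1.01]. H2-K1 and H2-D1 are closely alike in sequence and reads may be split between them. In the interferon gamma list, which shares Nlrc5, this was the 1 gene higher of 23 without mixed barcodes. Over all members Cxcl10 was higher as well, among 29, at 28.8 CPM at 4 Gy and 0.876 CPM at 0 Gy, but 3.13 and 1.01 CPM without mixed barcodes. For all genes, 7.48% were higher over all members and 7.43% without mixed barcodes.

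Jun was the lowest at 4 Gy relative to 0 Gy among protein-coding genes with 100 or more UMIs in members without mixed barcodes. This AP-1 transcription factor, an immediate early gene, had 42.6 CPM at 4 Gy, against 109 CPM at 0 Gy, a ratio of 0.390 [0.284 to 0.534]. Over all members it had 59.2 CPM at 4 Gy and 139 CPM at 0 Gy, 0.425 [0.331 to 0.545]. After thinning it was expected in 3.77% of cells at 4 Gy and 9.57% at 0 Gy. Jun lies at chr4:95049034-95052222 on the minus strand. Its ratio was 0.296 [0.168 to 0.511] in naive-like CD4 T cells and 0.374 [0.242 to 0.570] in CD8 T cells with Ccl5, the same way, and 0.841 [0.779 to 0.908] in B cells. Its relatives differed in this: Junb had 175 CPM at 4 Gy, against 196 CPM at 0 Gy, 0.892 [0.740 to 1.08], Jund 359.7 CPM at 4 Gy, against 390.1 CPM at 0 Gy, 0.922 [0.809 to 1.05], and Fos, the usual partner of Jun, was called higher with 28.8 CPM at 4 Gy, against 16.2 CPM at 0 Gy, 1.78 [0.991 to 3.37]. In the immediate early and stress list, Dusp1, Nfkbid, Nfkbiz and Fos were higher and Jun lower among 23 genes, with a median of 0.02. The shares of all genes were 7.43% higher and 2.67% lower. Over all members it was Ier3 higher and Jun, Gadd45b, Fosb and Nr4a1 lower among 29. Of Gadd45b's UMIs, 57.4% at 4 Gy and 73.0% at 0 Gy were in mixed barcodes.

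Ly6c2, a surface protein that memory-phenotype CD8 T cells carry at high levels, was lower at 4 Gy. It had 150.4 CPM at 4 Gy, against 264 CPM at 0 Gy, a ratio of 0.570 [0.476 to 0.682], and over all members 157 CPM at 4 Gy and 241 CPM at 0 Gy, 0.653 [0.552 to 0.771]. It was seen in 88 of 425 cells at 4 Gy (20.7%) and in 79 of 215 at 0 Gy (36.7%), and after thinning it was expected in 9.59% and 16.8%, so that a smaller share of cells at 4 Gy held it at equal depth. Its ratio was 1.11 [1 to 1.23] in CD8 T cells with Ccl5 and 1.10 [0.985 to 1.24] in B cells, and the ratio in the members over that in cells with Ccl5 was 0.514 [0.420 to 0.629]. Naive-like CD4 T cells had Ly6c2 at 13.0 CPM at 4 Gy and 18.8 CPM at 0 Gy, also lower at 4 Gy but at low levels. The gene lies at chr15:75108158-75111970 on the minus strand. Its near-identical neighbour Ly6c1 had 11.3 CPM at 4 Gy and 9.10 CPM at 0 Gy, and reads of this pair may have been split in counting. Ly6c2 is also a monocyte gene, and 20.0% of its UMIs at 4 Gy and 5.09% at 0 Gy lay in mixed barcodes.

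In the list of virtual-memory-like genes, which memory-phenotype CD8 T cells express, Ly6c2 was the 1 gene lower of 7 and none was higher without mixed barcodes, with a median of -0.15. Over all members Id2 was higher and Ly6c2 and Cxcr3 were lower among 8. For all genes, 7.43% were higher and 2.67% lower without mixed barcodes, and 7.48% and 2.36% over all members. Il2rb, a receptor chain for interleukins 2 and 15, had 58.9 CPM at 4 Gy, against 65.7 CPM at 0 Gy, 0.897 [0.647 to 1.25], Il18r1 47.0 CPM at 4 Gy, against 65.7 CPM at 0 Gy, 0.715 [0.506 to 1.01], and Cxcr3 10.7 CPM at 4 Gy, against 18.2 CPM at 0 Gy, 0.586 [0.284 to 1.20]. Eomes, the factor of memory and virtual memory CD8 cells, had 10 UMIs at 4 Gy and 12 at 0 Gy, 0.517 [0.200 to 1.30]. Trdc, the gamma-delta T cell receptor constant region and a marker of another cell type, had 18.2 CPM at 4 Gy, against 34.4 CPM at 0 Gy, 0.529 [0.311 to 0.894], but 18 of its 34 UMIs at 0 Gy were in 1 cell. Trdc was detected in 18 cells at 4 Gy (4.24%) and 6 at 0 Gy (2.79%).

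The calls of the effector and cytotoxic list rested in part on mixed barcodes. Over all members 7 of 20 measured genes were higher, Ccl4, Ccl3, Anxa2, Lgals3, S100a6, Id2 and S100a4, and none was lower. Without mixed barcodes, Ccl4, Ccl3 and S100a6 were higher among 14 measured, with a median of 0.10. Of all genes, 7.48% were higher over all members and 7.43% without mixed barcodes. The inflammatory chemokine Ccl3 had 55.1 CPM at 4 Gy and 3.51 CPM at 0 Gy over all members, with 70.5% of its UMIs at 4 Gy in mixed barcodes, and 30 of the remaining 31 in 1 cell. Ccl4 had 61.4 and 0.876 CPM, with 25 of the remaining 30 UMIs in 1 cell. S100a6 had 42.0 CPM at 4 Gy, against 13.1 CPM at 0 Gy, a ratio of 3.19 [1.75 to 6.31], from 36 cells at 4 Gy and 9 at 0 Gy, while 87.8% and 93.4% of its UMIs were in mixed barcodes. Nkg7, by contrast, was in most members, with 466 CPM at 4 Gy, against 409 CPM at 0 Gy, 1.14 [1.01 to 1.29], and Klrd1 had 230.0 CPM at 4 Gy, against 249 CPM at 0 Gy, 0.925 [0.785 to 1.09]. In the checkpoint and costimulation list, Tnfrsf9, the receptor 4-1BB, was lower over all members with 2.10 CPM at 4 Gy and 28.1 CPM at 0 Gy, 29 of its 32 UMIs at 0 Gy being in 1 mixed barcode. Without mixed barcodes, Cd160 was the 1 gene higher of 10, with 17.5 CPM at 4 Gy, against 9.10 CPM at 0 Gy, 1.93 [0.885 to 4.65].

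Mki67, which marks cycling cells, was seen in 3 of 453 members at 4 Gy and 1 of 226 at 0 Gy. Other genes of the cell cycle and replication list were detected in more cells, Dut, an enzyme of nucleotide metabolism, in 79 and 53 members and Tubb5, a tubulin, in 431 and 212. In that list, Stmn1, Top2a and Cenpa were higher among 13 genes without mixed barcodes, with a median of -0.01, and 5 of 15 were higher over all members. The shares of all genes that were higher were 7.43% without mixed barcodes and 7.48% over all members. A single cell at 4 Gy held 22 of the 26 UMIs of Top2a and, by gene, the highest cell held 27 of the 41 UMIs of Stmn1. Cdkn1b, the inhibitor p27 of resting T cells, had 125 CPM at 4 Gy, against 154 CPM at 0 Gy, 0.816 [0.657 to 1.01], and no D-type cyclin or inhibitor was called among 8. Hist1h2ap, a replication-dependent histone gene, was higher with 84.0 CPM at 4 Gy, against 32.3 CPM at 0 Gy, 2.60 [1.75 to 3.95], but 89 of its 134 UMIs at 4 Gy were in 1 cell, and without that cell it had 28.4 CPM.

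Few metabolic and chaperone genes were called. None of 19 heat shock and chaperone genes and none of 9 mitochondrially encoded genes was called, with medians of -0.03 and -0.07. Of 73 nuclear genes of oxidative phosphorylation, Ndufs3 was higher, with a median of -0.04, and of 14 genes of glycolysis and hypoxia, Pfkl, with a median of 0.06. Those 4 lists had the same counts of calls over all members, where 20, 9, 73 and 20 genes were measured. Among 12 glucocorticoid-responsive genes Cxcr4 and Dusp1 were higher, and none of 3 circadian clock genes was called. For all genes without mixed barcodes, 7.43% were higher and 2.67% lower.

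Many of the largest ratios over all members came from few barcodes, though not all of them. Of the 12 genes highest at 4 Gy with 100 or more UMIs, Ccl24, Ccl4, Chil3, Fn1, Ccl3, Capg, Anxa2, Cdkn1a and Cd9 had 70.5 to 97.9% of their 4 Gy UMIs in mixed barcodes. The others were Rps16, Gm6341 and Gm5586, with 7.92%, 14.1% and 9.93% there and UMIs in 177, 84 and 138 members at 4 Gy. Ccl24, an eosinophil-attracting chemokine of macrophages, had 75 CPM at 4 Gy and 0 CPM at 0 Gy, and 139 of its 143 UMIs were in 1 barcode. At the low end, Mgl2, a macrophage lectin, had 43.5 CPM at 4 Gy and 128 CPM at 0 Gy, with 98.8% and 100% of its UMIs in mixed barcodes. Tmem176b and Gadd45b also had most of their UMIs there. The other low genes did not, such as Rpl37, with UMIs in 357 members at 4 Gy and 211 at 0 Gy, and Jun, in 69 and 66. Without mixed barcodes, and leaving out ribosomal protein genes and predicted (Gm) genes, the protein-coding genes at the high end included Sec24c, a subunit of the vesicle coat COPII, Hist1h2ap, Zzef1, Msl1, Mllt6, Mtfr1l, Sp1, Htt, Med15, Galnt6 and Flii, this choice being made after seeing the data. Sec24c had 60.1 CPM at 4 Gy, against 21.2 CPM at 0 Gy, 2.83 [1.75 to 4.79], from 85 cells at 4 Gy and 20 at 0 Gy, against ratios of 1.67 [0.798 to 3.82] in CD4 cells and 1.05 [0.740 to 1.5] in CD8 cells with Ccl5. At the low end, with the same genes left out, were Jun, Cbx3, Oxr1, Ly6c2, Azi2, Abhd2, Snrpf, Adrm1, Ifrd1, Oaz1, Pfdn1 and Erh. Cbx3, the heterochromatin protein HP1 gamma, had 82.1 CPM at 4 Gy, against 149 CPM at 0 Gy, 0.552 [0.433 to 0.704], against 0.813 [0.650 to 1.02] in CD8 cells with Ccl5 and 0.753 [0.686 to 0.825] in B cells.

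Some ribosomal protein genes were called in each cell group compared. Of 81 measured in naive-like CD8 T cells, 12 were higher and 5 lower over all members, and 14 and 5 without mixed barcodes, although the median log2 ratio was -0.02 and 0.02. In the other groups 13 were higher and 7 lower of 76 in CD4 cells, 15 and 2 of 81 in CD8 cells with Ccl5, and 13 and 3 of 85 in B cells. Of all genes, 10.1% were higher and 5.95% lower in CD4 cells, and 6.09% and 2.90% in CD8 cells with Ccl5. Without mixed barcodes these shares were 10.2% and 6.43%, and 5.34% and 3.58%. In the members they were 7.48% and 2.36%, and 7.43% and 2.67% without mixed barcodes. For B cells no such share was computed, so their count of ribosomal protein genes has no background here. Rps16 had 138 CPM at 4 Gy, against 40.4 CPM at 0 Gy, a ratio of 3.42 [2.44 to 4.92], and 4.06 [2.27 to 7.90] in CD4 cells, 4.16 [2.78 to 6.43] in CD8 cells with Ccl5 and 3.75 [3.18 to 4.43] in B cells. Rpl37 had 419.8 CPM at 4 Gy, against 815 CPM at 0 Gy, 0.515 [0.465 to 0.572], against 0.650 [0.541 to 0.781], 0.648 [0.583 to 0.721] and 0.594 [0.568 to 0.620] in the same cell groups. The abundant Rps24 had 13160 CPM at 4 Gy, against 13060 CPM at 0 Gy, 1.01 [0.986 to 1.03]. Ribosomal protein genes have many near-identical pseudogene copies that can take reads from them, so these single values are uncertain, and whether the libraries differ in RNA or in handling was not tested.

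**Figure D5:**
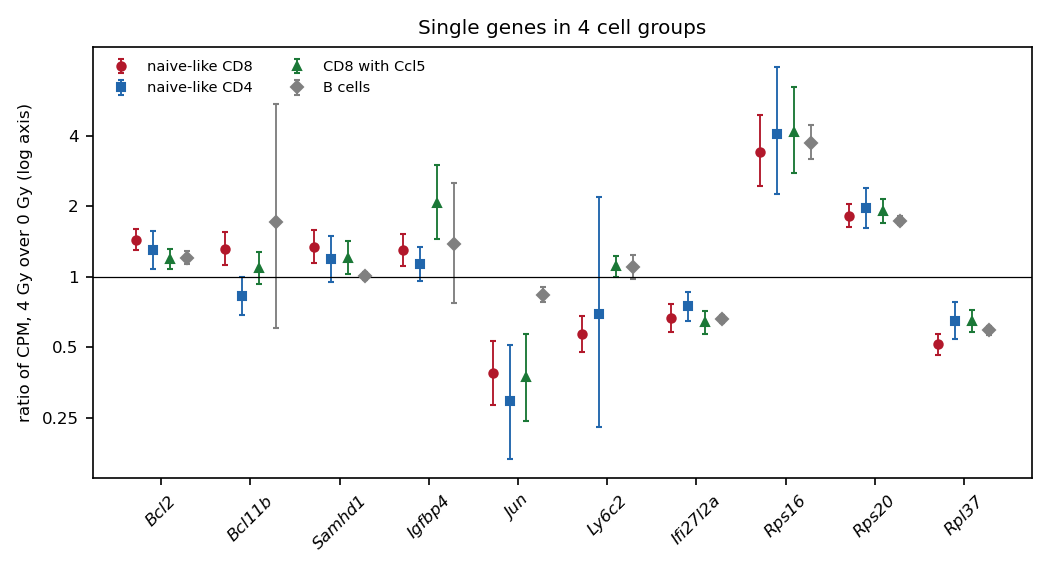
Ratio of CPM at 4 Gy over 0 Gy (log axis) of 10 genes in naive-like CD8 T cells, naive-like CD4 T cells and CD8 T cells with Ccl5, each without mixed barcodes, and in B cells, with exact 95% counting intervals. Rps16 and Rpl37 lie on the same side of 1 in all 4 cell groups, and Jun is lowest in the 3 T cell groups. Ly6c2 is below 1 in naive-like CD8 T cells and, at low levels, in naive-like CD4 T cells, but not in CD8 T cells with Ccl5.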

How the data were processed

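Per the labels, cells came from HKP1-bearing lungs after 4 Gy or mock treatment. Per the submitters' processing notes, STAR, Partek, Seurat and mm10 were used, and neither their roles nor their versions are stated. Each table holds log2(CPM + 1) per cell, as deposited by the authors. The CPM steps gave whole reads, here UMI counts, for 99.9993% to 99.9996% of values within a tolerance of 0.02. Depth was 36423571 UMIs (4 Gy) and 24045901 UMIs (0 Gy) in the CD45-plus libraries, which share 10 barcode sequences.

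Members were found by the rule in Python 3.11.15 (numpy 2.4.6, scipy 1.17.1, pandas 2.3.3). UMIs were summed per library and cell group, and ratios have exact conditional binomial 95% intervals. Each group being 1 library, there is no test. Gene coordinates and the protein-coding label come from the GENCODE annotation of GRCm38. Thinning to 1000 UMIs was computed as an expectation. Doublets were marked with Scrublet in scanpy 1.11.5 for an alternative. The ratio was run on simulated counts with known fold changes and counting error alone. That setting does not cover UMIs gathered in single cells, mixed barcodes or differences between libraries. Other alternatives changed the rule, scaling, added CPM and minimum UMIs.

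The members and gene lists were chosen with earlier results of these data known. Genes named were the rule's genes, of each list the called genes (at most 5 per direction) and the 3 with most UMIs, the 12 highest and 12 lowest with at least 100 UMIs, and the 12 at each end against the other T cells. Genes outside this rule were chosen after their values were seen. Some genes that the rule names are not reported here.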

Additional observations from a re-analysis of the deposited data

Results flagged for a closer look

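Hist1h2ap had a log2 ratio of 4 Gy over 0 Gy of 1.25 in naive-like CD8 T cells without mixed barcodes and of -1.03 in CD8 T cells with Ccl5, the opposite way. Each group is 1 library, and the difference between the cell groups was not tested. In the naive-like cells, 89 of the 134 UMIs at 4 Gy were in 1 cell.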

How the results depend on the processing

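No paired analysis was possible because each treatment had 1 CD45-plus library. The share ratio was 1.04 to 1.16 under the other rules and settings, except with both Lef1 and Dapl1 required, where it was 0.954 (2.06% at 4 Gy, 2.16% at 0 Gy). Counts of higher genes were 60 with 50 CPM added, 968 with at least 10 UMIs, 171 with at least 100 and 1190 with no minimum. Counts of lower genes were 325 with 1 CPM added and 28, 349, 62 and 496 under those same settings. The list medians of p53, naive and interferon genes kept their sign in every alternative, but the median of all genes was itself above 0. The p53 median was 0.18 over all members, above the 0.07 of all genes. Without mixed barcodes it was 0.04, below the 0.06 of all genes. Log2 ratios turned round with both Lef1 and Dapl1 required for Mgl2 (1.94), Tmem176b (0.014), Gadd45b (0.91), Cxcr4 (-0.12), Fosb (0.054) and Nr4a1 (0.59), with 2 UMIs of the CD8 genes for Hist1h2ap (-0.60), with Cd79a allowed for Ccl4 (-0.75) and Ccl3 (-0.96), and without mixed barcodes for Mgl2 (0.17) and C1qa (-0.36). Without mixed barcodes, a setting chosen after seeing the data, 167 of 202 named genes moved by less than their counting interval. Scrublet's automatic threshold marked 6.33% of barcodes at 4 Gy and 0.203% at 0 Gy, where the top 4.75% by score were left out instead, and 6 of 28 and 5 of 11 mixed barcodes were among those left out. With 1 library per group, differences between mice, sorts and libraries cannot be told apart from those of the dose, and genes under 100 UMIs have wide intervals.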
